A study of Homo sapiens with 12 samples.

Results

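The genes described here are those with clear expression in vehicle-treated HK-2 cells whose level was far lower in every library treated with aristolochic acid I (AAI), with and without knockdown of POLR2A. HK-2 is an established human kidney proximal tubule line. Levels are CPM, read counts scaled to a common library size. A gene was included if its CPM was at least 5 in each of 6 vehicle (DMSO) libraries and if its highest CPM over 6 AAI libraries was under 50% of its lowest CPM over the DMSO libraries. The members were thus chosen by their own AAI and DMSO values. There were 52 such genes among 10133 with at least 5 CPM in each DMSO library (0.513%) and 35238 in the table. The 10133 are called the expressed genes below. The same rule turned around, with the lowest AAI value more than double the highest DMSO value, was met by 35 expressed genes (0.345%).

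All cells were transfected with short interfering RNA at 10 nM, either a scrambled control (SCR) or one against POLR2A (siB), and over the same 24 hours received DMSO or 25 µM AAI. This made 4 groups of 3 libraries (SCR DMSO, SCR AAI, siB DMSO and siB AAI), all of 1 cell line, so the replicates carry no variation between people. Nothing in the labels says that replicates came from separate cultures, and p-values measure only the spread between these libraries. The titles define the groups, as another label gives DMSO for all 12 samples.

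AAI is a plant toxin that is activated in proximal tubule cells and forms bulky adducts on purines in DNA. RNA polymerase II stalls at such adducts in the transcribed strand, and the stalled polymerase recruits transcription-coupled repair. Genes differ in how much template they expose, since their transcribed spans range from under a few kilobases to more than a megabase. POLR2A encodes RPB1, the largest subunit of this polymerase.

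Depth ran from 15844015 to 42805294 reads per library. POLR2A itself averaged 284 CPM with SCR and 140 CPM with siB siRNA in vehicle, and 707 and 232 CPM under AAI. Tubule and epithelial markers were mixed. PAX8 (at least 199.9 CPM), GGT1 (at least 96.03 CPM) and KRT8 (at least 526 CPM) were present in every library, whereas LRP2, CUBN and AQP1, genes of the differentiated proximal tubule, never passed 2.261 CPM, and the organic anion transporters SLC22A6 and SLC22A8 never passed 0.06312 CPM. SCR DMSO replicate 2 was the deepest library and stood apart from its group. On the second principal component, with 18.3% of the variance, it lay at -62.2, against 57.8 and 20.03 for its group's other libraries. Without it 82 genes met the rule, the 52 among them.

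Because the rule used the AAI and DMSO values, the size of the difference is given as a description, without a test. In SCR cells the mean AAI level of a member was 7.83% to 42.1% of its mean DMSO level, with a median of 26.3%. In siB cells the range was 7.37% to 43.2% and the median 25.4%. Over all expressed genes the medians were 105% and 97.0%. The ratio on which genes were chosen, highest AAI over lowest DMSO value, ran from 13.9% in TRPT1 to 49.5% in AIG1, with a median of 43.5%. Most members therefore lay close to the limit, and only 6 would have met a limit of 33.33% (SH3GLB2 is the sixth). Just inside the limit were TMEM102 (49.4%), SMARCC2 (49.4%) and AIG1 (49.5%), and just outside it UBE2E2 (50.6%), PITPNC1 (50.6%) and SLC39A13 (50.6%). Closest to the CPM minimum were PLEKHN1, KLF12 and RALGPS1, whose lowest DMSO values were 5.81, 5.91 and 5.97 CPM.

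In the fit across all genes (limma on log2 of CPM plus 1, called at an adjusted p under 0.05 and at least 2-fold), all 52 were called lowered in SCR cells, where 2.73% of 14228 genes tested were lowered, and all 52 in siB cells, where 5.79% of 14928 were. These counts follow from the choice and support nothing further. Without SCR AAI replicate 3 the count in SCR cells was 39. With DMSO and AAI libraries set to median-ratio size factors in place of library totals, the median change over all genes tested in SCR cells moved from 0.18 to -0.0074 on the log2 scale, and that of the members from -1.75 to -1.93. The calls over all genes moved from 1100 raised and 389 lowered to 924 and 698. By that scaling 87 genes met the rule, 51 of the 52 among them, CISD3 being the exception. Bulk RNA cannot tell fewer cells that express a gene from less RNA per cell.

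**Figure D1:**
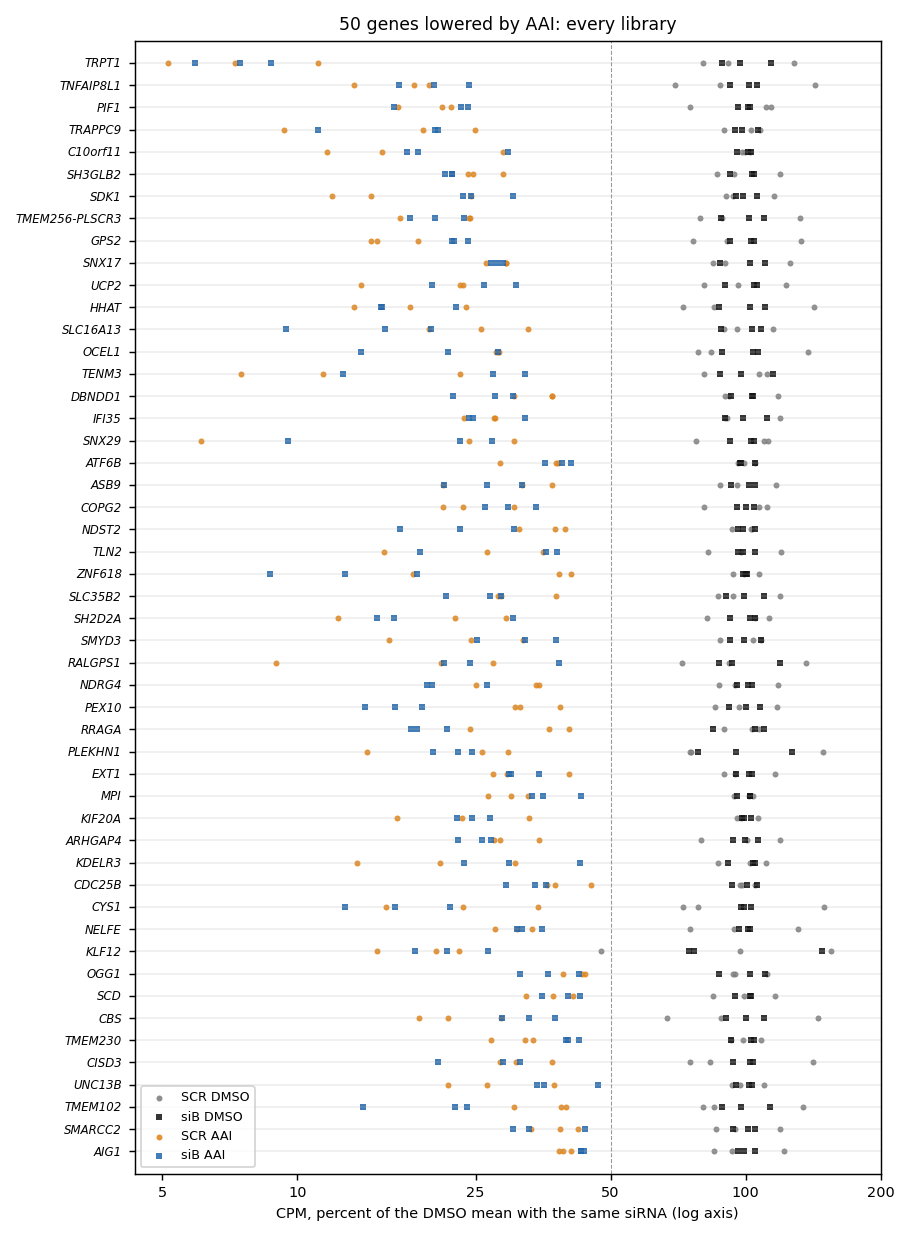
CPM of 50 of the 52 genes in every library, as a percent of the mean DMSO level with the same siRNA, on a log axis, ordered by the ratio on which they were chosen. DMSO libraries are grey circles (SCR) and black squares (siB), AAI libraries orange circles (SCR) and blue squares (siB), and the dashed line marks 50%. All AAI points lie to the left of the line, and TRPT1, at 7.83% and 7.37% of its DMSO means, lies farthest left.

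The 52 genes were all protein-coding. Of 13 name-based functional groups, vesicle trafficking held the most, 4 members of 449 expressed genes (0.891%), and 32 members matched no group. These groups go by symbol alone and differ from the lists by role below. They cannot say whether a pathway held many members. The members are described here by what each encodes. Naming followed a rule on ratio, reads, span and functional group, and other members were named for their roles after their values had been seen.

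The most abundant member was SCD, stearoyl-CoA desaturase, which makes monounsaturated fatty acids. Its levels were 1558, 1821 and 2142 CPM in SCR DMSO, against 684.3, 597.3 and 756.6 CPM in SCR AAI. Knockdown cells had 1809, 1815 and 1673 CPM with DMSO and 755, 619.9 and 710.4 CPM with AAI. The 4 groups thus formed a high pair and a low pair, with 36.9% of the DMSO mean left in SCR cells and 39.4% in siB cells. UCP2, an uncoupling protein family carrier of the inner mitochondrial membrane, was at 197.5, 301.2 and 235.5 CPM in SCR DMSO, against 33.96, 57.32 and 56.34 CPM in SCR AAI. With the knockdown UCP2 was at 204, 236.7 and 240.9 CPM with DMSO and 45.38, 59.35 and 70.04 CPM with AAI. Its AAI libraries of both backgrounds overlapped each other and lay far below every DMSO library. Other members with roles in metabolism or organelles were CBS, the first enzyme of transsulfuration, CISD3, a mitochondrial iron-sulfur protein, SLC16A13, a monocarboxylate transporter, and PEX10, a ubiquitin ligase of peroxisome import. CBS has a near-identical copy on the same chromosome, CBSL, listed with levels much like its own (21 to 49.5 CPM in SCR DMSO and 6.34 to 12.1 CPM under AAI), and reads could be split between the copies, so both values are uncertain. The AAI means of these members were between 15.02% (SLC16A13, siB) and 33.5% (PEX10, SCR) of DMSO.

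Some members act in the making of sugar chains, grouped here by role after the members were known and with no count against other genes. EXT1 polymerises the heparan sulfate chain, NDST2 removes acetyl groups from it and adds sulfate, SLC35B2 carries the sulfate donor into the Golgi, and MPI, of mannose metabolism, opens the path to mannose donors. EXT1 was at 198.7, 152.9 and 162 CPM in SCR DMSO, against 46.88, 50.3 and 69.1 CPM in SCR AAI. Its siB values were 188, 185 and 173 CPM with DMSO and 54.59, 54.09 and 62.91 CPM with AAI. This left 32.4% of the DMSO mean in SCR and 31.4% in siB cells. SLC35B2 was at 111.7, 153.6 and 120.4 CPM in SCR DMSO, against 36, 48.58 and 36.64 CPM in SCR AAI. Knockdown cells had 143.3, 157.5 and 174.4 CPM with DMSO and 45, 34.06 and 42.66 CPM with AAI. NDST2 kept 36.1% of its DMSO mean in SCR cells and 23.5% in siB cells, and MPI 29.8% and 37.2%.

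Genes of membrane traffic included SNX17, a sorting nexin that returns receptors from endosomes to the surface, SNX29, another sorting nexin, TRAPPC9, a subunit of a tethering complex, COPG2, a coat subunit, KDELR3, which retrieves proteins to the endoplasmic reticulum, SH3GLB2, an endophilin B, UNC13B, a vesicle priming protein, and TMEM230. SNX17 was at 92.84, 129.7 and 87.44 CPM in SCR DMSO, against 27.28, 30.23 and 30.11 CPM in SCR AAI. With siB it was at 90.62, 105.7 and 114.1 CPM in DMSO and 28.02, 28.84 and 29.85 CPM in AAI. The 6 AAI values of this gene spanned only 27.28 to 30.23 CPM. TRAPPC9 was more variable under AAI, at 1.325, 3.535 and 2.701 CPM in SCR and 2.02, 3.692 and 3.751 CPM in siB cells, against 12.69 to 15.3 CPM in SCR DMSO and 17.27 to 19.43 CPM in siB DMSO. SH3GLB2 stood at 66.08 to 91.51 CPM with DMSO and 18.39 to 22.02 CPM with AAI in SCR cells, and at 79.64 to 89.99 CPM and 18.46 to 19.13 CPM in siB cells. KDELR3 was uneven, with 10.71, 4.758 and 7.282 CPM in SCR AAI.

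Members that act on nucleic acids included TRPT1, a tRNA 2′-phosphotransferase, PIF1, a DNA helicase of telomeres and mitochondria, and OGG1, the glycosylase that removes 8-oxoguanine. OGG1 was at 17.7, 21.12 and 17.87 CPM in SCR DMSO, against 7.399, 8.157 and 8.3 CPM in SCR AAI. In siB cells OGG1 was at 17.23, 20.16 and 21.74 CPM with DMSO and 6.185, 7.153 and 8.36 CPM with AAI. OGG1 kept the largest share of its level among members in SCR cells, 42.1%. PIF1 kept 19.9% in SCR and 21.2% in siB cells.

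Transcription and chromatin were represented by NELFE, a subunit of the negative elongation factor that holds polymerase II near promoters, GPS2, a subunit of the NCoR corepressor complex, SMARCC2, a core subunit of the SWI/SNF remodeller, SMYD3, a lysine methyltransferase, ATF6B, a membrane-bound factor of the unfolded protein response, and the DNA-binding proteins KLF12 and ZNF618. NELFE was at 74.54, 103.7 and 59.61 CPM in SCR DMSO, against 26.5, 21.89 and 24.47 CPM in SCR AAI. Knockdown cells had 78.31, 83.1 and 81.96 CPM with DMSO and 25.75, 25.06 and 28.51 CPM with AAI. GPS2 was at 39.42, 68.38 and 46.81 CPM in SCR DMSO, against 9.607, 7.522 and 7.752 CPM in SCR AAI. Its siB values were 51.98, 57.81 and 58.77 CPM with DMSO and 13.51, 12.46 and 12.59 CPM with AAI, so that its siB AAI libraries all lay above its SCR AAI libraries.

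Of 2 cell cycle members, CDC25B, a phosphatase that activates cyclin-dependent kinases before mitosis, was the third by DMSO reads, at 231.6 to 250.6 CPM in SCR DMSO, against 86.33 to 108.1 CPM in SCR AAI. KIF20A, a kinesin of the central spindle, was at 119.7 to 133.4 CPM and 20.94 to 41.08 CPM in the same groups. Adhesion and cell surface members were TENM3, a teneurin, SDK1, a sidekick, an immunoglobulin superfamily adhesion protein, and TLN2, which links integrins to actin. SDK1 was at 11.37, 8.901 and 9.229 CPM in SCR DMSO, against 1.436, 2.402 and 1.174 CPM in SCR AAI, with 9.604 to 10.69 CPM and 2.358 to 3.046 CPM in the siB groups. Signalling members included RRAGA, a Rag GTPase of amino acid sensing, HHAT, which attaches palmitate to Hedgehog ligands, ARHGAP4 and RALGPS1, regulators of small GTPases, SH2D2A, an adaptor, and TNFAIP8L1. TNFAIP8L1 had the next lowest ratio after TRPT1 (28.8%), with 22.91 to 46.96 CPM in SCR DMSO, against 4.417 to 6.48 CPM in SCR AAI. HHAT kept 18.4% of its DMSO mean in SCR cells and 17.8% in siB cells. Further members were ASB9, a substrate adaptor of a ubiquitin ligase, IFI35, an interferon-induced protein, CYS1, a protein of the cilium, NDRG4, DBNDD1, AIG1, OCEL1 and PLEKHN1, which kept 23.2% to 39.4% in SCR cells and 17.1% to 43.2% in siB cells, and the chromosome 17 members TMEM102 and TMEM256-PLSCR3. C10orf11 (annotated as LRMDA) had a ratio of 31.6% and as few as 16 reads in an AAI library. The fewest reads of any member in an AAI library were 14, and the median over members was 106.

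Genes of the same complexes or families were set beside the members in a list of 168, written after the members were known. Of these, 160 were tested. In SCR cells 1 was lowered and 4 were raised (0.625% and 2.50%, beside 2.73% and 7.73% of all genes tested), with a median change of 0.02 on the log2 scale. The siB counts were 4 lowered and 6 raised (2.50% and 3.75%, beside 5.79% and 13.9%). No other tested subunit was called in either background among the 3 of the negative elongation factor, the 5 of the NCoR complex, the 23 of SWI/SNF or the 23 of TRAPP, COPI and the KDEL receptors. For COPG1, the paralogue of COPG2, the means were 201 and 176 CPM in SCR DMSO and SCR AAI (-0.20, SE 0.20, adjusted p = 0.566).

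Among the heparan sulfate genes B4GALT7, which adds the first galactose of the linker, was lowered from a mean of 25.7 to 8.22 CPM in SCR cells (-1.51, SE 0.28, adjusted p = 0.0103, limma) and from 31.7 to 9.60 CPM in siB cells (-1.63, SE 0.14, adjusted p = 2.11e-05). SULF2, a sulfatase that trims the finished chain, was raised from 0.285 to 12.1 CPM in SCR cells (3.36, SE 0.23, adjusted p = 1.26e-04) and from 0.349 to 11.6 CPM in siB cells. In SCR cells a relative was raised where the member was low in 3 cases, picked after their values were seen. NEIL1, a glycosylase of base excision repair like OGG1, was raised from 4.10 to 22.2 CPM in SCR cells (2.18, SE 0.31, adjusted p = 0.00327). UCP3, the paralogue of UCP2, was raised from 1.17 to 11.3 CPM (2.50, SE 0.29, adjusted p = 0.00125). CDC25A was raised from 46.7 to 108 CPM (1.19, SE 0.20, adjusted p = 0.00707). In siB cells NEIL1 was also raised, from 3.38 to 30.2 CPM. Of 22 base excision repair genes tested in siB cells, 1 was raised and 2 were lowered. Of 13 closest paralogues of other members tested, 2 were raised in SCR cells and 1 in siB cells.

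The members were mostly short genes or genes over 300 kb, with few between. Spans were taken from GENCODE on hg38, and every member had one. Of the 52, 33 (63.5%) spanned under 30 kb, 4 (7.69%) from 30 to 100 kb and 15 (28.8%) over 100 kb. Among expressed genes the shares were 46.9%, 34.1% and 19.0%. At the long end, 11 members (21.2%) spanned over 300 kb, against 2.94% of expressed genes. Read the other way, 3.73% of the 295 expressed genes over 300 kb were members. Of the 1612 genes of 100 to 300 kb only 0.248% were, below the 0.513% of all expressed genes. The share was 0.117% of the 3417 genes of 30 to 100 kb and 0.945% of the 1799 under 10 kb. Of the 35 genes raised by the turned rule, 32 had a span and none was over 100 kb. The short share depended on the setting. With median-ratio size factors 44 of 86 genes with a span were short and 35 long. Among members overlapping no protein-coding gene 44.8% were short, against 44.9% of such expressed genes. These shares are descriptions of a chosen set and were not tested.

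**Figure D2:**
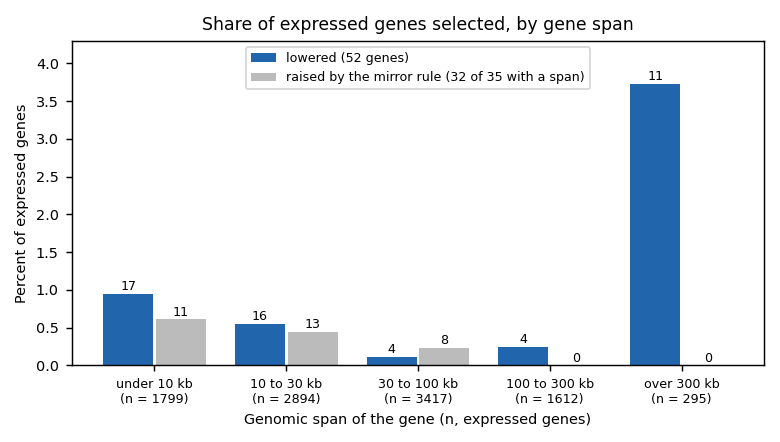
Percent of expressed genes that met the rule (blue) or the rule turned around (grey), by genomic span, with the number of genes above each bar and the number of expressed genes under each label. The blue bars are high at both ends, 0.945% under 10 kb and 3.73% over 300 kb, and lowest from 30 to 100 kb, at 0.117%.

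The longest members were C10orf11 (chr10:75431624-76560168, plus strand, 1128.5 kb), SDK1 (chr7:3301252-4269000, plus strand, 967.7 kb), SMYD3 (chr1:245749342-246507312, minus strand, 758.0 kb) and TRAPPC9 (chr8:139727725-140458579, minus strand, 730.9 kb). SMYD3, for instance, has a canonical transcript of 1565 nt, so nearly all of its span is intron. The 15 long members had a median span of 448.3 kb and a mean intron of 29470 nt (median over genes), against 158.9 kb and 11320 nt in long expressed genes. The shortest were RRAGA (chr9:19049427-19051025, plus strand, 1.6 kb, 1 exon), TMEM102 (chr17:7435435-7437679, plus strand, 2.2 kb), TRPT1 (chr11:64223799-64226254, minus strand, 2.5 kb) and OCEL1 (chr19:17226213-17229219, plus strand, 3.0 kb). Short members had more exons than short expressed genes (median 9 against 6), shorter introns (911 against 1647 nt) and transcripts richer in G and C (58.7% against 54.2%).

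Long and short members also differed in how they varied between AAI libraries. In SCR AAI, replicate 1 was the lowest of the 3 libraries for 14 of 15 long members (93.3%), compared with 39.4% of long expressed genes and 66.4% of expressed genes over 300 kb. For short members it was the lowest in 14 of 33 (42.4%). In siB AAI, replicate 1 was the lowest for 11 of 15 long members (73.3%, against 37.2% of long expressed genes and 58.6% of those over 300 kb) and 10 of 33 short ones. Most of the long members, 11 of 15, were themselves over 300 kb. SNX29, for example, was at 1.325, 6.616 and 5.246 CPM in SCR AAI, against 2.461, 5.953 and 7.02 CPM in siB AAI, and TENM3 was at 1.988, 3.036 and 6.147 CPM and 3.471, 7.476 and 8.842 CPM. Against their group mean, long members had a median of 66.5% in SCR AAI replicate 1 and 80.1% in siB AAI replicate 1. In SCR DMSO the low library was another one, since replicate 2 was the lowest for 12 of 15 long members, as it was for 75.8% of long expressed genes. The part of the library in the level of long genes was not tested.

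Short members mostly lay tail to tail with another gene. A convergent neighbour was counted where a protein-coding gene on the opposite strand had its 3′ end within 5 kb of the 3′ end of the member or overlapped it. Of the 33 short members, 25 (75.8%) had one, against 35.6% of 4680 short expressed genes and 9 of 24 (37.5%) short genes raised by the turned rule. The share with a head-to-head neighbour at the 5′ end was 30.3% against 29.6%. Put the other way, 1.5% of short expressed genes with a convergent neighbour were members, compared with 0.265% of those without. In 14 of the 25 pairs (56%) the 3′ ends overlapped, against 46.6% for all short expressed genes with a convergent neighbour. Among the 14 were GPS2 with EIF5A, KDELR3 with DDX17, SH3GLB2 with NUP188 and SMARCC2 with MYL6. SLC35B2 ended 208 bp from the end of HSP90AB1. The feature was noticed in these genes and is a description. The 15 long members had a convergent neighbour in 3 cases (20%, against 23.4% of long expressed genes).

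The convergent neighbours were often strongly expressed. Their median DMSO level was 88.0 CPM, against 27.4 CPM for the neighbours of all short expressed genes that had one. Short genes whose neighbour was at 100 CPM or more in DMSO were members in 12 of 313 cases (3.83%), compared with 0.853% where it was at 10 to 100 CPM and 1.13% where it was under 10 CPM. Since the counting is not stated to use strand, reads of overlapping ends could not be told apart, and the levels of such members are uncertain to that extent. Among members without any overlapping protein-coding gene (29 of 52), 44.8% were short and 44.8% long, against 44.9% and 20.9% of such expressed genes.

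**Figure D3:**
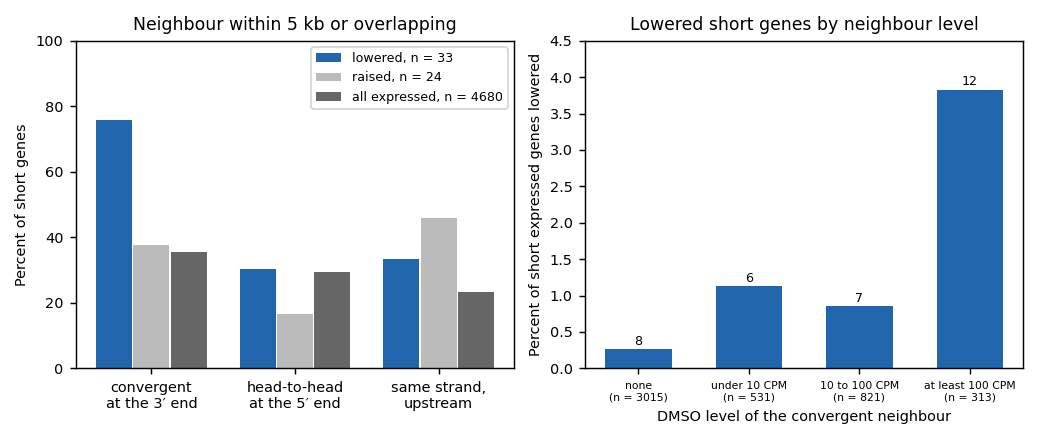
Left, percent of short genes (under 30 kb) with a protein-coding neighbour within 5 kb or overlapping, in convergent, head-to-head or same-strand upstream position, for members (blue), genes raised by the turned rule (light grey) and all expressed genes (dark grey). Right, percent of short expressed genes that were members, by the DMSO level of the convergent neighbour, with the number of members above each bar. The convergent share is 75.8% in members and 35.6% in all short expressed genes, and the right panel is highest, at 3.83%, for neighbours of at least 100 CPM.

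Most convergent neighbours, taken here over members of every span class, were not lowered with the members. Of 29 convergent neighbours tested in SCR cells, 0 were called lowered by limma and 3 were raised (2.73% and 7.73% of all genes tested were), and in siB cells 1 was lowered and 4 were raised (5.79% and 13.9% were). At an unadjusted p under 0.05, 2 were lower and 4 higher in SCR cells, and 6 lower and 9 higher in siB cells. Of all genes tested, 27.0% in SCR and 58.5% in siB cells had such a p in either direction. Their median changes were 0.13 and -0.02 on the log2 scale. The strongly expressed neighbours HSP90AB1 (0.05 on the log2 scale in SCR cells, adjusted p = 0.911), EIF5A (0.13, adjusted p = 0.806) and NUP188 (0.31, adjusted p = 0.33) did not pass the test. In siB cells other neighbours at 100 CPM or more in DMSO moved in both directions by less than 2-fold. By limma, VAT1 (-0.73, adjusted p = 4.34e-04), NR2F6 (-0.94, adjusted p = 1.36e-04) and DDX17 (-0.43, adjusted p = 0.029) were lower. RER1 was higher (0.48, adjusted p = 0.00302). KCNH1, the neighbour of the long member HHAT, was at a mean of 58.8 CPM in SCR DMSO, against 26.8 CPM in SCR AAI (-1.24, SE 0.41, adjusted p = 0.0942) and was lowered in siB cells (-1.25, SE 0.24, adjusted p = 0.002).

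The neighbours raised in SCR cells were FERMT3, ZNF513 and AVPR2. TRPT1, the member with the lowest ratio, shares 97 bp of its 3′ end with FERMT3 (chr11:64205926-64223896, plus strand), which encodes the blood-cell integrin activator kindlin-3. TRPT1 was at 10.44, 14.67 and 9.156 CPM in SCR DMSO, against 0.8282, 1.269 and 0.5872 CPM in SCR AAI, and at 11.27 to 14.44 CPM and 0.7502 to 1.108 CPM in the siB groups. FERMT3 went the other way, with 0.416, 0.724 and 0.478 CPM in SCR DMSO, against 49.9, 49.1 and 43.2 CPM in SCR AAI (4.98, SE 0.24, adjusted p = 5.33e-05), and with 0.256, 0.451 and 0.279 CPM and 31.9, 27.9 and 31.0 CPM in the siB groups (4.56, SE 0.16, adjusted p = 2.21e-07). The start of FERMT3 lies 1383 bp past the end of STIP1 on the same strand, and STIP1 was at a mean of 235 CPM in SCR DMSO, against 258 CPM in SCR AAI.

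The same arrangement was present at SNX17. Its 3′ end overlaps by 300 bp that of ZNF513 (chr2:27377235-27380790, minus strand), a zinc finger gene whose start lies 405 bp past the end of PPM1G. ZNF513 was at 3.97, 5.12 and 3.86 CPM in SCR DMSO, against 39.7, 43.4 and 35.3 CPM in SCR AAI (2.93, SE 0.25, adjusted p = 2.85e-04). With siB it was at 4.06, 4.55 and 4.01 CPM in DMSO and 32.6, 28.3 and 27.6 CPM in AAI (2.55, SE 0.15, adjusted p = 2.84e-06). PPM1G stayed between 195 and 323 CPM over all libraries. AVPR2, the vasopressin receptor gene that ends 201 bp from ARHGAP4, had means of 2.30 CPM in SCR DMSO, against 7.55 CPM in SCR AAI (1.39, SE 0.25, adjusted p = 0.00943). AVPR2 did not share the close upstream gene, since the nearest one on its strand, SSR4, was 104032 bp away. These 3 neighbours were named after their values were seen, and whether they bear on the level of the members was not tested.

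**Figure D4:**
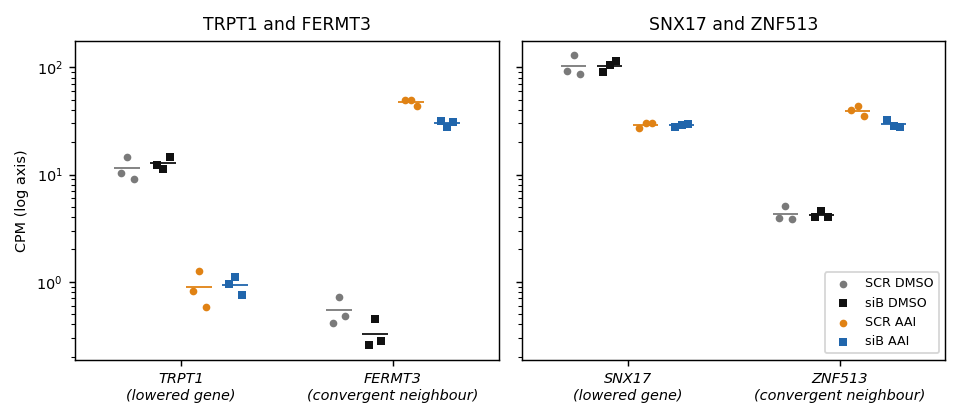
CPM in every library (log axis) of TRPT1 with its convergent neighbour FERMT3 (left) and of SNX17 with ZNF513 (right), with short lines at the group means. In both pairs the member is low and the neighbour high in all 6 AAI libraries, and the reverse in all 6 DMSO libraries, with no overlap for any of the 4 genes.

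Promoters were compared to see whether the members shared a start-site sequence. A promoter of 300 bases (250 before and 50 after the start site, RefSeq on GRCh38.p14) within 1 kb of the annotated start was found for 36 members and 7125 expressed genes. The members did not stand apart in base composition, with a median of 66.7% G and C against 66.3%, and 25 CpG pairs against 28. The range was wide, from 39.3% in ASB9 to 84.0% in CISD3. The following stretches are the 120 bases just before the start of 2 short members (UCP2, SH3GLB2) and 2 long ones (SNX29, HHAT), shown as CpG-dense and CpG-poor examples whose start is the same in both annotations. Capitals mark any of the searched motifs, on either strand.
UCP2, chr11:73982844-73982963, minus strand: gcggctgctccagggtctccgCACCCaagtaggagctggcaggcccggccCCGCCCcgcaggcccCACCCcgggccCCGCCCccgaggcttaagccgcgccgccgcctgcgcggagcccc
SH3GLB2, chr9:129028332-129028451, minus strand: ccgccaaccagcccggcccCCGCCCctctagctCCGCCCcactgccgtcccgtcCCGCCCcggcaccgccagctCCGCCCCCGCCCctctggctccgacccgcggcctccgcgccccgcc
SNX29, chr16:11976614-11976733, plus strand: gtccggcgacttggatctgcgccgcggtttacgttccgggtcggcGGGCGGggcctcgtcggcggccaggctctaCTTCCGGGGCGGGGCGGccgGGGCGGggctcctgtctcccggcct
HHAT, chr1:210328132-210328251, plus strand: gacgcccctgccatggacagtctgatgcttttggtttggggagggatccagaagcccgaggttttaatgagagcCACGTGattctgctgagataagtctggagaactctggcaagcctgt

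The 4 stretches hold 14, 17, 19 and 3 CpG pairs. Of 9 motifs searched on both strands, the GC box GGGCGG was in 26 of 36 member promoters (72.2%), against 75.2% of expressed genes and 45.0% of all 35116 promoters in the table. CCAAT was in 38.9% (37.3% and 34.6%), CCGGAAG, the core of ETS family sites, in 19.4% (21.6% and 10.3%), CACGTG in 11.1% (11.2% and 7.26%), CACCC in 75% (63.2% and 59.9%), CATTCC in 16.7% (10.1% and 14%) and TGANTCA in 2.78% (3.75% and 7.71%). No member promoter held TATAAA or TGACGTCA, which were in 4.65% and 3.54% of expressed promoters and in 11.5% and 1.85% of all. The letters CACCC and GGGCGG can overlap in the same run. These shares say only which letters are in the window.

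Members were spread over the genome, with at most 6 on a chromosome. On chromosome 17, SLC16A13, GPS2, TMEM256-PLSCR3 and TMEM102 lay within 401.7 kb (chr17:7036015-7437679), among 18 expressed genes. The median change of the other 14 was -0.03 in SCR and -0.25 in siB cells on the log2 scale, and 7 of the 14 were on the lower side in SCR cells. TMEM256-PLSCR3 is a read-through locus that joins neighbouring genes, so its counts share sequence with both and are uncertain. TMEM256 by itself was at 26.2, 44.7 and 24.5 CPM in SCR DMSO, against 14.9, 19.0 and 11.7 CPM in SCR AAI (-0.99, SE 0.32, adjusted p = 0.0863). In siB cells TMEM256 was also lower with AAI (-0.936, SE 0.165, adjusted p = 0.00126, limma). The joined locus was at 36.74, 54.74 and 32.76 CPM with DMSO and 7.012, 10.06 and 9.983 CPM with AAI in the same cells. NELFE and ATF6B lay 156.2 kb apart on chromosome 6, and SKIC2, which starts head to head with NELFE, was lowered with it (-1.17, SE 0.23, adjusted p = 0.0141 in SCR cells). Of 9 head-to-head neighbours tested in SCR cells, 1 was lowered and 1 raised, the latter GAS8 beside DBNDD1. Of all genes tested, 2.73% were lowered and 7.73% raised. In siB cells 2 of the 9 were lowered and 0 raised, beside 5.79% and 13.9%.

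The rule did not use a difference between SCR and siB cells, but it kept only genes that were low under AAI in both. Genes with a response in a single background were thereby left out, so the counts of members called for the knockdown are shaped by the choice, and nothing about the members is read from their shares beside those of all genes. The knockdown comparisons ask whether lower POLR2A changed these genes under AAI or in vehicle. Under AAI, 51 members passed the filter on low values (TRPT1 did not). Of these 0 were raised and 1 was lowered in siB against SCR cells, beside 3.04% raised and 0.629% lowered of 14946 genes tested. The median difference of the members was 0.03 on the log2 scale, and 29 of 51 were on the higher side. By voom and with median-ratio size factors 0 members were called. At an unadjusted p under 0.05, 2 were higher and 3 lower in the limma fit (9.8% of the members, beside 25.5% of all genes tested). With the replicate block these were 6 and 5 (21.6%, beside 39.1%). The lowest adjusted p over all genes was 2.09e-40 with the block, against 5.82e-04 in the main limma fit. Why these lie so far apart was not tested, so p-values with the block are uncertain. The siB AAI libraries lay wholly above the SCR AAI libraries for 5 members (8.3% of expressed genes did) and wholly below for 3 (19.7% did). Of the long members 12 of 15 were on the higher side in siB cells (62.0% of long expressed genes were), and of the short members 15 of 32 (32.3% of short expressed genes).

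The exception was ZNF618 (chr9:113876282-114056593, plus strand). It was at 4.583, 9.698 and 10.3 CPM in SCR AAI, against 2.146, 4.569 and 3.162 CPM in siB AAI, so the groups did not overlap, although SCR AAI replicate 1 barely exceeded the highest siB value (-1.07, SE 0.30, adjusted p = 0.0426, limma). Over its alternatives the difference ran from -1.40 to -0.87 with a library left out, and 4 of those 6 fits no longer called it. Next in order were TMEM230 (0.50, 95% interval 0.14 to 0.85, adjusted p = 0.0744) and GPS2 (0.58, 0.17 to 1, adjusted p = 0.077), which did not pass. TENM3 had the largest difference to the higher side (0.70 on the log2 scale), with siB AAI at 3.471 to 8.842 CPM overlapping SCR AAI at 1.988 to 6.147 CPM.

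In vehicle, 52 members were tested and 0 were called in either direction, as were 0 of all 13606 genes tested (0% background). POLR2A itself, at means of 284 CPM with SCR and 140 CPM with siB, was thus not called either. A missing call therefore does not show that a gene was unchanged. With all 4 groups in 1 fit, 5 of 15325 genes were raised and 1 was lowered, and 0 members were called. At an unadjusted p under 0.05 there were 4 members higher and 1 lower (9.62%, beside 4.73% of all genes), and voom also called 0 of all genes. Without overlap, the siB DMSO libraries were above the SCR DMSO libraries for 7 members (8.75% of expressed genes) and below for 3 (3.92%). The members' median was 0.05 with deposited CPM and -0.03 with size factors. KIF20A had the smallest p (-0.44, 95% interval -0.75 to -0.13, adjusted p = 1).

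For the difference between the 2 AAI responses (the interaction of siRNA and AAI, over all 4 groups), 0 of 52 members were called by limma, beside 1.46% raised and 0.157% lowered of 15325 genes. At an unadjusted p under 0.05, 4 were lower in siB cells and 0 higher (7.69% of the members, beside 13.3% of all genes), and voom called 0 of all genes. The median was -0.03, and 0.06 with size factors. PEX10 had the smallest p. Its levels were 26.11, 35.84 and 29.49 CPM in SCR DMSO, against 9.331, 11.78 and 9.553 CPM in SCR AAI. Knockdown cells had 42.88, 39.27 and 46.05 CPM with DMSO and 6.059, 8.123 and 7.074 CPM with AAI. The share left was 33.5% in SCR and 16.6% in siB cells, a difference of -0.96 on the log2 scale (95% interval -1.52 to -0.39, adjusted p = 0.1). ZNF618, next by p, had the largest difference among the members, with 32.4% left in SCR and 13.3% in siB cells (-1.04, 95% interval -1.89 to -0.18, adjusted p = 0.26), and RRAGA was next by p with 33.7% and 19.3% (-0.73, 95% interval -1.35 to -0.11, adjusted p = 0.278). The intervals leave room for differences of this size in many members, and a missed threshold does not show that the backgrounds respond alike.

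**Figure D5:**
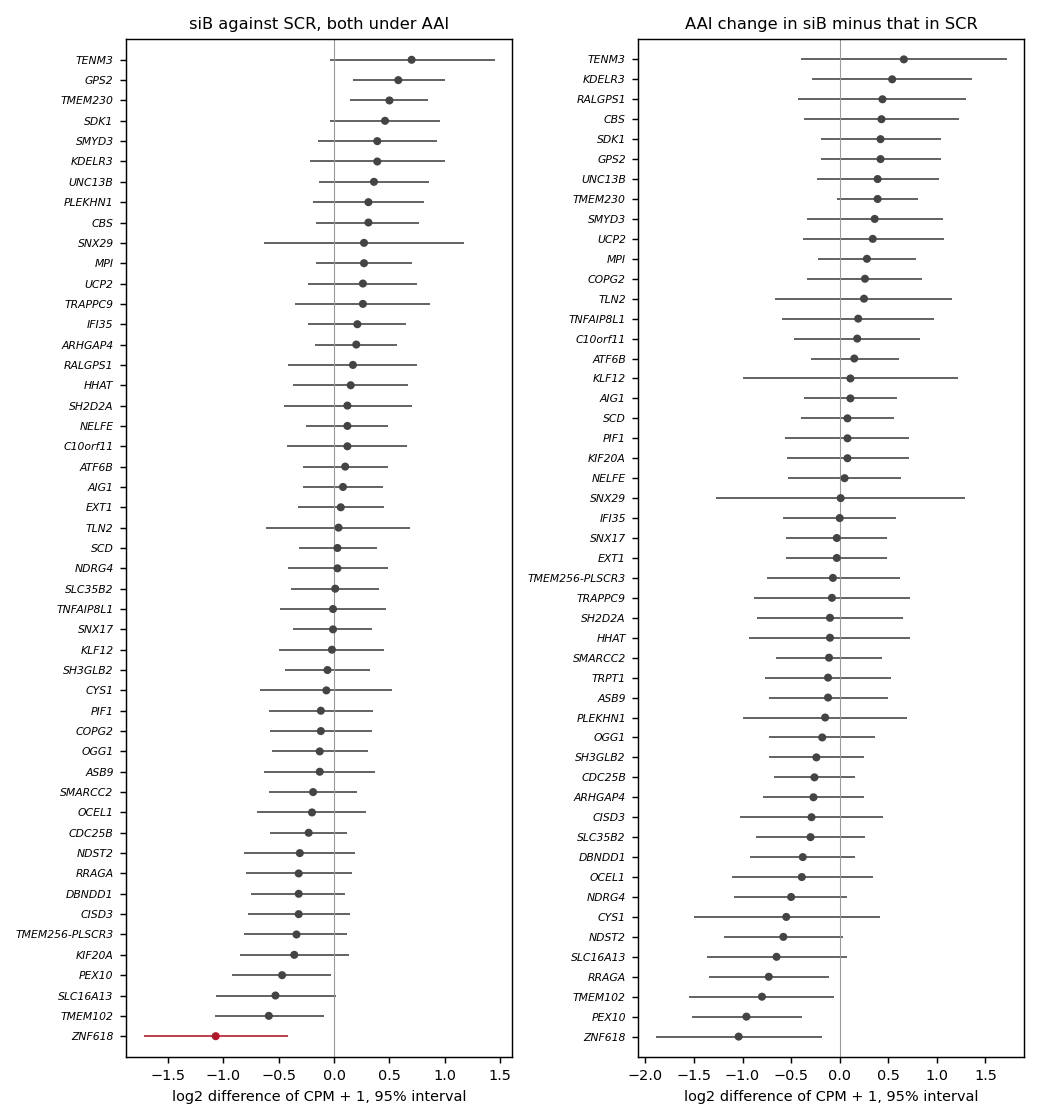
Differences on the log2(CPM + 1) scale with 95% intervals from limma, sorted by size. Left, siB against SCR under AAI for 49 of the 51 members tested, with ZNF618, the gene called lowered at -1.07, in red. Right, the change with AAI in siB cells minus that in SCR cells for 50 of the 52 members, from -1.04 in ZNF618 to 0.66 in TENM3, with no gene called.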

How the data were processed

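The authors aligned paired-end reads from 12 HK-2 libraries to hg38, counted them per gene with a UCSC annotation on the BioJupies platform and deposited log10 values, log10 of CPM plus 1. The aligner and strand setting are not given in the sources used here. CPM was recovered as 10 to the deposited value, minus 1. In each library 100% of values were whole multiples (within 0.1) of 1 read, which gave the depths. Members and lists were chosen with earlier results of these data known. Differences were fitted with limma 3.58.1 in R 4.3.3 (eBayes with trend) on the log2 scale after adding 1 to CPM (the pseudocount), with only the libraries of both groups in a comparison, or all 4 groups for the interaction. Genes needed 1 CPM in at least 3 libraries of the fit. Calls needed a Benjamini-Hochberg adjusted p under 0.05 and a 2-fold change (interaction: adjusted p alone). The fit was also run on simulated counts that had no effect shared across a library. That run checks the code and not the error rate in these libraries. Count models were not used, although whole reads could be recovered from the deposited logs of CPM. An alternative was voom on the recovered reads.

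Named members were the 12 with the lowest ratio, the 8 with most DMSO reads, up to 6 per direction called in each knockdown comparison, 3 on each side of the ratio limit, 3 nearest the CPM minimum, the 4 longest and 4 shortest, and up to 3 per functional group. Spans, strands and overlaps came from GENCODE release 44 on hg38, with older symbols matched through RefSeq, and promoters from RefSeq. Whether replicate numbers pair libraries was checked over 15325 genes, by the correlation between libraries that share a number after subtracting each group's mean. Every pair passed 0.1 between SCR DMSO and SCR AAI (0.338 to 0.473) and between SCR AAI and siB AAI (0.292 to 0.614), but not between siB DMSO and siB AAI (0.026 to 0.210) or SCR DMSO and siB DMSO (-0.193 to 0.726). Replicates were not copies, with chi-square per degree of freedom of reads per gene of at least 4.38. Alternatives were other scalings, minimums, pseudocounts, class limits, a replicate block, voom, and leaving out each library. A few genes are not reported here by name and were left out of the figures that label genes, but remain in all counts and medians.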

Additional observations from a re-analysis of the deposited data

How the results depend on the processing

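The number of members was 87 with median-ratio size factors, 33 with a minimum of 20 CPM, 6 with a limit of 33.33%, 118 from SCR libraries alone and 366 from siB libraries alone. Leaving out 1 library gave 53 to 82, with 82 without SCR DMSO replicate 2. The number was 72 with a minimum of 1 CPM. With the gene AC010970.2 left out of the library totals it was 48, and only 46 of the 52 were among these. Among members overlapping no other gene, short and long shares were both 44.8% and the median span was 44.9 kb. By size factors the median span was 29.8 kb, and of 86 genes with a span 44 were short and 35 long. The share over 300 kb was 34.5% and 25.6% in these settings. The convergent share was 60.6% within 1 kb, 75% for genes under 20 kb and 72.7% for members by size factors, all chosen after seeing the data. Members lowered by AAI were 39 to 52 in SCR cells and 52 in siB cells with a library left out. Under AAI the 1 member lowered by the knockdown became 0 with no filter, size factors or voom, and 0 to 1 with a library left out (0 without SCR AAI replicate 2 or 3 or siB AAI replicate 1 or 3), and the cause was not tested. The interaction called 0 to 1 with a library left out (1 without SCR DMSO replicate 2). With the replicate block the paired comparisons called 52 lowered by AAI in SCR cells and 1 lowered under AAI, and the block changed no other call of a member. Over all genes the lowered calls in SCR cells were 389, 698 with size factors, 269 with no filter and 118 to 749 with a library left out (749 without SCR DMSO replicate 2). The interaction raised 223 and lowered 24 genes, 38 and 8 with a pseudocount of 0.1, 557 and 68 with no filter, 287 and 102 with the block, 0 and 0 by voom, and 78 to 498 and 3 to 512 with a library left out. The knockdown under AAI raised 454 and lowered 94, 820 and 567 with no fold limit and 144 to 597 and 44 to 164 with a library left out, and AAI in siB cells raised 2080 and lowered 864, 4535 and 3259 with no fold limit. Reads per AAI library, as few as 14 for a member, limit the precision of the lowest values.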
